A study of Mus musculus with 15 samples.

Results

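The 8 mouse Ugt1a genes encode UDP-glucuronosyltransferases that share 1 locus and the same last exons. They were taken by symbol from a table of 23349 genes measured by RNA sequencing: Ugt1a1, Ugt1a2, Ugt1a5, Ugt1a6a, Ugt1a6b, Ugt1a7c, Ugt1a9 and Ugt1a10. Each symbol had a single record, so no rows had to be summed for them. All samples came from male wild-type C57BL/6 mice 2 to 3 months old, with no treatment named. Liver, taken without the gallbladder, was compared with 4 flushed sections of the gut: the duodenum, the jejunum, the ileum and the colon, labelled large intestine. Each of the 5 tissues had 3 libraries, 15 in total, which carry the number of their titles here (jejunum 24). Whether the 3 libraries come from different animals is not labelled, so the spread behind the p-values may be technical.

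Glucuronidation joins glucuronic acid, carried by UDP-glucuronic acid, to bilirubin, hormones, bile acids and drugs in the endoplasmic reticulum, and the more soluble products leave in bile or urine. Each Ugt1a gene has its own promoter and its own exon coding the part of the enzyme that binds the substrate, and all are spliced to common exons coding the part that binds UDP-glucuronic acid. UGT1A1 is the enzyme that conjugates bilirubin, and its loss in people causes severe jaundice. Liver and intestine are both known as sites of glucuronidation, and in humans UGT1A7, UGT1A8 and UGT1A10 are known as enzymes of the gut rather than the liver.

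In the GENCODE M21 annotation of the mm10 genome the locus lies on the plus strand at chr1:88055411-88220002. The common part consists of 4 exons from chr1:88215044 to chr1:88218997 with 1311 shared bases. Upstream of it the own exons stand in the order Ugt1a10, Ugt1a9, Ugt1a7c, Ugt1a6b, Ugt1a6a, Ugt1a5, Ugt1a2 and Ugt1a1. The own exon of Ugt1a10, at chr1:88055411-88056336, lies 158.7 kb before the shared exons, and that of Ugt1a1, at chr1:88211959-88212871, lies 2.17 kb before them. Between these lie the own exons of Ugt1a9 (chr1:88070800-88071678), Ugt1a7c (chr1:88095064-88095978), Ugt1a6b (chr1:88106941-88107799), Ugt1a6a (chr1:88138473-88139331), Ugt1a5 (chr1:88166012-88166903) and Ugt1a2 (chr1:88200601-88201500). Ugt1a6a and Ugt1a6b have 2 own exons each, of which the coordinates give the last.

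The splice junctions show what a read can tell about its gene. The last 30 bases of each own exon are printed 5′ to 3′ in lower case and the opening 20 bases of the shared exons in capitals, from the GENCODE transcripts.
Ugt1a1: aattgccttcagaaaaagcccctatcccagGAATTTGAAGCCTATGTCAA
Ugt1a7c: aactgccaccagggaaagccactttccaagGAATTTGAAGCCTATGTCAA
Ugt1a9: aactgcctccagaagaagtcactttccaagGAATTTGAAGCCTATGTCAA
Ugt1a10: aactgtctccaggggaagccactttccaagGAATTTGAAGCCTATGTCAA
Ugt1a6a and Ugt1a6b: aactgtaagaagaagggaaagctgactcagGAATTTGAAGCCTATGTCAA
Ugt1a5 and Ugt1a2: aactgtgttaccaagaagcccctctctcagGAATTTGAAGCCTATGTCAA
The capitals are the same in all 8 genes, so a read inside the shared exons belongs to no single gene. The lower-case bases are also the same in Ugt1a6a and Ugt1a6b, and in Ugt1a5 and Ugt1a2. Own exons make up 40.1% (Ugt1a9) to 42.9% (Ugt1a6a and Ugt1a6b) of a gene's own plus shared bases, counted to chr1:88218997 in GENCODE. The deposited records run to chr1:88220002, except that of Ugt1a6b, which ends at chr1:88218998. For the longer records the own share behind the deposited values may thus be lower. The own coding sequences of Ugt1a6a and Ugt1a6b were 97.0% identical, those of Ugt1a9 and Ugt1a10 91.3% and those of Ugt1a2 and Ugt1a5 81.4%. Ugt1a7c was 81.1% identical to Ugt1a9 and 80.8% to Ugt1a10, and the other pairs lay between 55.0% and 59.0%. Of the 50-base windows of the own exons, 54.5% of those of Ugt1a6a recur in another member, against 0% for Ugt1a1 and 0.462% for Ugt1a7c. The division of reads between Ugt1a6a and Ugt1a6b is thus the least certain of these values, while the own exons of Ugt1a1 and Ugt1a7c share almost no such window.

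Values are FPKM, which divide the fragments of a gene by its transcript length and by the size of the library, so that levels can be compared between genes. Among the 8 Ugt1a genes such a comparison also rests on how shared reads were divided, which is not known. Library depth is unknown, so values carry no counting interval. Differences were tested in limma on log2(FPKM + 1), a scale that understates the change of low genes, over the 13757 genes that reached 1 FPKM in at least 3 libraries. A gene counted as called at a Benjamini-Hochberg adjusted p under 0.05 with a log2 difference of 1 or more either way. Ugt1a2 and Ugt1a10 did not pass the filter, so 6 of the 8 genes were tested. Fewer cells of a type and less RNA per cell cannot be told apart in these whole-tissue samples.

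The tissues showed their markers. The summed level of 6 hepatocyte markers was 35569 to 46327 FPKM in liver and at most 34.0 in any intestinal library. A summed level of 6 enterocyte markers was 11832 to 13152 in duodenum, 2346 to 8651 in jejunum, 3316 to 8876 in ileum, 327 to 681 in large intestine and 89.1 to 104.6 in liver. The sum of 4 colonocyte markers was 1218, 2097 and 2513 in large intestine 24, 25 and 27, and at most 157 elsewhere. Paneth cell markers summed to 2207, 191 and 92.3 in the same libraries. Smooth muscle markers summed to 1639 to 2489 in large intestine and 371 to 805 in small intestine. In 2 libraries the ileal marker Fabp6 went against the label. Fabp6 was 6731 FPKM in jejunum 24 against 23.1 and 5.61 in jejunum 27 and 28, and 255 in ileum 24 against 6597 and 8112 in ileum 25 and 27. Values without the libraries labelled jejunum 24 and ileum 24 are given beside the levels of the main Ugt1a genes and of their sum, and, for other genes, where a call changed. In duodenum 28 the 5 measured of 6 pancreatic acinar markers summed to 84.0 FPKM, against 4.12 and 1.66 in duodenum 24 and 27. The median of all genes tested was higher in the intestine than in liver, by a log2 difference of 0.58 in duodenum, with 0.73, 0.68 and 0.83 in the next sections down to large intestine. With median-of-ratios scaling these medians were 0.02, 0.00, 0.01 and -0.02. The share of higher genes among those called was 76.9%, 80.5%, 78.8% and 82.3% as deposited and 52.9%, 50.2%, 50.9% and 50.9% with that scaling. The same share was 45.1% against 22.1% for jejunum against duodenum, 60.1% against 48.2% for large intestine against ileum, and 64% against 45.1% for large intestine against duodenum.

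**Figure D1:**
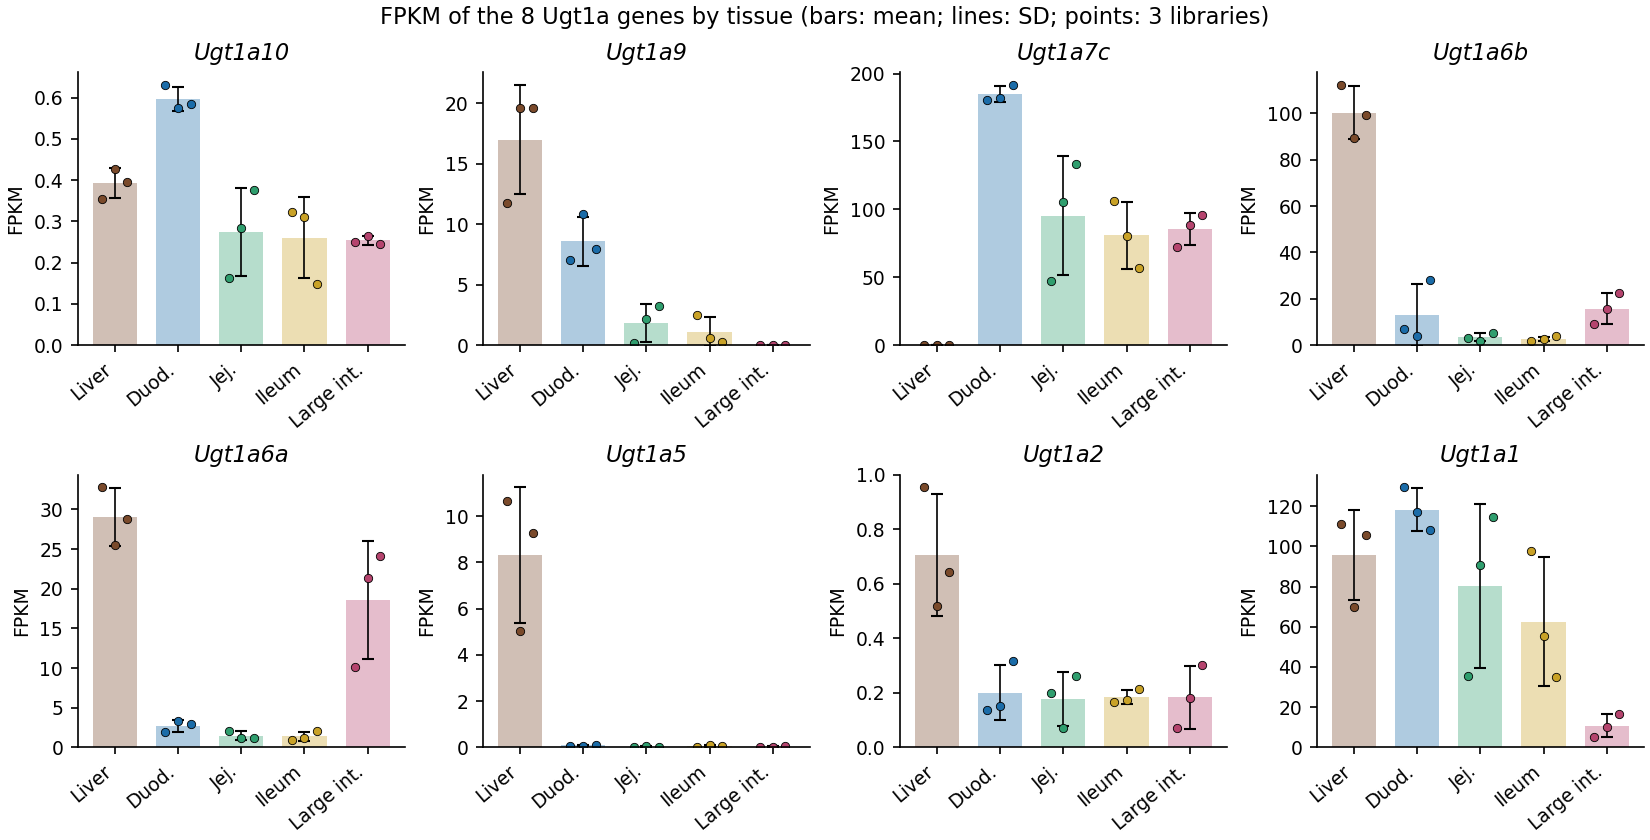
FPKM of the 8 genes (1 panel each, with its own linear axis) in liver, duodenum, jejunum, ileum and large intestine. Bars are means, lines are SD and points are the 3 libraries; Ugt1a7c is near 0 in liver, with a mean of 0.161, and at 185 in duodenum, and Ugt1a1 is lowest in large intestine, with a mean of 10.7.

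Ugt1a1, the bilirubin-conjugating enzyme, overlapped in level between liver and small intestine and was low in the large intestine. In liver its values were 111, 69.8 and 106 FPKM, and in duodenum 129, 117 and 108. Jejunum gave 35.4, 90.9 and 114 FPKM in libraries 24, 27 and 28, and ileum gave 97.5, 55.3 and 34.9 in libraries 24, 25 and 27. Large intestine gave 5.37, 10.1 and 16.6 FPKM, all below every other library, while the other 4 tissues overlapped. The means were 95.5 ± 22.4 FPKM in liver and 118 ± 10.7, 80.3 ± 40.6, 62.6 ± 31.9 and 10.7 ± 5.64 in the sections from duodenum to large intestine (SD, n = 3 each). Without jejunum 24 and ileum 24 the means of jejunum and ileum were 103 and 45.1 FPKM.

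Against liver, Ugt1a1 was lower in large intestine, with a log2 difference of -3.14 (SE 0.48, limma adjusted p = 5.14e-05). In duodenum its difference was 0.33 (SE 0.48, limma adjusted p = 0.538), and it turned to -0.46 with median-of-ratios scaling. In jejunum the difference was -0.38 (adjusted p = 0.472) and in ileum -0.70 (adjusted p = 0.194). Ugt1a1 in jejunum turned to 0.12 without jejunum 24 and ileum 24, and in ileum reached -1.07 (adjusted p = 0.0191) and passed the test without them. With median-of-ratios scaling Ugt1a1 passed as lower in both jejunum (-1.36, adjusted p = 0.0248) and ileum (-1.60, adjusted p = 0.0106). Along the gut it was lower in large intestine than in ileum (-2.44, SE 0.48, adjusted p = 0.00125) and than in duodenum (-3.47, SE 0.48, adjusted p = 6.37e-05). Within jejunum and ileum the libraries low in Ugt1a1 were also low in enterocyte markers: these summed to 2346 FPKM in jejunum 24 and 3316 in ileum 27, against 7684 to 8876 in the other 4. Lct was 15.5 FPKM in jejunum 24 and 13.1 in ileum 27, against 87.6 to 245 in the other 4 libraries. Vil1 differed less, at 305 and 448 against 457 to 662. The ileal marker Fabp6 was 6731 in jejunum 24 and 8112 in ileum 27, and 6597 in ileum 25. The sum of 4 lymphocyte markers was 44.4 FPKM in jejunum 24 and 38.7 in ileum 27, against 6.91 to 19.5 in the other 4 libraries. The parts of enterocyte content, of lymphocyte content and of position along the gut in these levels of Ugt1a1 were not tested.

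Ugt1a7c was near 0 in liver and at 47.3 FPKM or more in every intestinal library. In liver it stood at 0.203, 0.0995 and 0.180 FPKM, and in duodenum at 181, 182 and 191. Jejunum gave 47.3, 105 and 133 FPKM in libraries 24, 27 and 28, ileum gave 106, 80.2 and 56.8 in libraries 24, 25 and 27, and large intestine 72.5, 88.1 and 95.8. Every intestinal library was above every liver library, and the 3 duodenal libraries were above all others, while jejunum, ileum and large intestine overlapped. Mean levels were 0.161 ± 0.0544 FPKM in liver and 185 ± 5.80, 95.3 ± 43.9, 81.0 ± 24.6 and 85.5 ± 11.9 in the sections from duodenum to large intestine (SD, n = 3 each). The ratio of the duodenal to the hepatic mean was 1148, of the jejunal 592, of the ileal 503 and of that of large intestine 531. The means of jejunum and ileum were 119 and 68.5 FPKM without jejunum 24 and ileum 24.

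Ugt1a7c was higher than in liver in all 4 sections, by a log2 difference of 7.32 in duodenum (SE 0.31, limma adjusted p = 1.08e-10), 6.25 in jejunum, 6.10 in the ileum and 6.21 in the large intestine. It was the single member called higher than liver in any section. Since Ugt1a7c passed the filter through its intestinal libraries alone, these calls were largely fixed by the filter. The p-value against liver thus adds no support of its own. Ugt1a7c was lower in jejunum than in duodenum (-1.07, SE 0.31, limma adjusted p = 0.0294) and lower in large intestine than in duodenum (-1.11, SE 0.31, adjusted p = 0.00637). The call in jejunum ended without jejunum 24, at -0.64 (adjusted p = 0.0925, or 0.0473 with ileum 24 also left out), and without duodenum 24 or duodenum 28 (adjusted p = 0.0711 and 0.108). It also ended with quantile normalization (-0.86, adjusted p = 0.0781), in a fit of only those 6 libraries (adjusted p = 0.149) and with the replicate number as a block (adjusted p = 0.0506). The call in large intestine against duodenum ended without large intestine 24 (-0.999), with quantile normalization (-0.84) and with equal sums of FPKM (-0.81), all by size, and with the block (-0.97, adjusted p = 0.0543). Large intestine against ileum gave 0.11 (SE 0.31, adjusted p = 0.788), and -0.08 with median-of-ratios scaling.

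Ugt1a6a and Ugt1a6b, a pair of near-identical genes whose human counterpart UGT1A6 conjugates simple phenols and serotonin, were highest in liver. Ugt1a6b was 112, 89.5 and 99.4 FPKM in liver and Ugt1a6a 32.8, 25.5 and 28.8. In duodenum Ugt1a6b was 7.04, 3.85 and 28.2 FPKM and Ugt1a6a 1.90, 3.36 and 2.95, in libraries 24, 27 and 28. Duodenum 28, the library with the raised acinar markers, thus had the highest Ugt1a6b of the small intestine, with no such rise in Ugt1a6a, and the part of those markers was not tested. Jejunum gave 2.86, 1.85 and 5.39 FPKM for Ugt1a6b and 2.11, 1.12 and 1.19 for Ugt1a6a. Ileum gave 1.70, 2.51 and 3.76 for Ugt1a6b and 0.875, 1.23 and 2.02 for Ugt1a6a. Large intestine gave 9.01, 15.7 and 22.3 FPKM for Ugt1a6b and 10.1, 21.4 and 24.1 for Ugt1a6a. Liver was above every other library for both genes, and large intestine was above every small intestinal library for Ugt1a6a but overlapped duodenum for Ugt1a6b.

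The sum of both genes depends less on how reads were divided between them, and it was 129 ± 15.04 FPKM in liver and 15.8 ± 13.4, 4.84 ± 1.81, 4.03 ± 1.62 and 34.2 ± 13.9 in the sections from duodenum to large intestine (SD, n = 3 each). It was 4.78 in jejunum and 4.76 in ileum without jejunum 24 and ileum 24. Against liver, Ugt1a6a was lower in duodenum (-3.02, SE 0.29, limma adjusted p = 4.46e-07), jejunum (-3.61) and ileum (-3.68). In large intestine Ugt1a6a differed by -0.70 (SE 0.29, adjusted p = 0.0362), under the size threshold, and was called lower with median-of-ratios scaling (-1.77, adjusted p = 3.39e-05). Ugt1a6b was lower than in liver in every section, by -3.27 in duodenum (SE 0.57, adjusted p = 0.000202), -4.61 in jejunum, -4.82 in the ileum and -2.68 in the large intestine (adjusted p = 0.000797). Both were higher in large intestine than in ileum, Ugt1a6a by 2.98 (SE 0.29, adjusted p = 2.86e-06) and Ugt1a6b by 2.15 (SE 0.57, adjusted p = 0.00848). Large intestine against duodenum gave 2.32 (adjusted p = 1.78e-05) for Ugt1a6a and 0.59 (adjusted p = 0.379) for Ugt1a6b, and without duodenum 28 the latter was called at 1.33 (adjusted p = 0.0145). Jejunum against duodenum gave -1.34 (adjusted p = 0.0951) for Ugt1a6b, which was called without duodenum 27 (-1.89, adjusted p = 0.0206). Ugt1a6a made up 22.4% ± 0.220 of the pair's sum in liver (SD, n = 3) and 54.1% ± 3.05 in large intestine, with no overlap between these libraries. In duodenum this share ran from 9.46% in library 28 to 46.6% in library 27. The deposited record of Ugt1a6a ends at chr1:88220002 and that of Ugt1a6b at chr1:88218998. The parts of this unequal end and of the division of reads in the share were not tested.

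Ugt1a9, whose human counterpart conjugates bulky phenols such as propofol, was highest in liver, with a lower mean in each section down the gut. It was 11.8, 19.6 and 19.6 FPKM in liver and 7.00, 10.8 and 7.92 in duodenum. Jejunum gave 0.162, 2.17 and 3.25 FPKM in libraries 24, 27 and 28, and ileum 2.51, 0.614 and 0.222 in libraries 24, 25 and 27. Large intestine gave 0.0346, 0.0234 and 1.1e-07 FPKM, the last of which is in effect 0. Jejunum and ileum overlapped, and every other neighbouring pair in the order liver, duodenum, jejunum, ileum, large intestine was apart. Means were 17.0 ± 4.50 FPKM in liver, 8.58 ± 2.00 in duodenum, 1.86 ± 1.57 in jejunum and 1.12 ± 1.22 in ileum (SD, n = 3 each). Without jejunum 24 and ileum 24 the jejunal and ileal means were 2.71 and 0.418 FPKM.

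Ugt1a9 was lower than in liver in jejunum (-2.81, SE 0.46, limma adjusted p = 8.83e-05), ileum (-3.20, SE 0.46, adjusted p = 2.97e-05) and large intestine (-4.11, SE 0.46, adjusted p = 2.51e-06). In duodenum the difference was -0.89 (SE 0.46, adjusted p = 0.0890), and with median-of-ratios scaling it was called at -1.65 (adjusted p = 0.00422). Ugt1a9 was lower in jejunum than in duodenum (-1.92, SE 0.46, limma adjusted p = 0.0190) and in large intestine than in duodenum (-3.21, SE 0.46, adjusted p = 7.26e-05). The call for jejunum ended without jejunum 24 (-1.36, adjusted p = 0.0698), without duodenum 28 (adjusted p = 0.0750) and in a fit of only those 6 libraries (adjusted p = 0.138). Large intestine against ileum gave -0.90 (adjusted p = 0.123), and with a pseudocount of 0.1 Ugt1a9 was called lower there (-2.83, adjusted p = 0.0197). Ileum against jejunum gave -0.39 (adjusted p = 0.899), and without jejunum 24 and ileum 24 Ugt1a9 was lower in ileum (-1.39, adjusted p = 0.0107).

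Ugt1a5 was a liver gene in these samples, with 10.7, 5.04 and 9.26 FPKM there. In the 12 intestinal libraries it lay between 0.0181 and 0.118 FPKM, far below every liver library. The mean was 8.32 ± 2.92 FPKM in liver and 0.0827 ± 0.0326 in duodenum (SD, n = 3 each), a ratio of 100.6. Its log2 difference from liver was -3.05 in duodenum (SE 0.17, limma adjusted p = 1.05e-09), -3.12 in jejunum, -3.07 in the ileum and -3.12 in the large intestine, all called. Since the intestinal values are near 0, these differences mostly express the liver level plus 1. Ugt1a5 passed the filter through its liver libraries alone. Its being called lower was thus largely fixed by the filter, and the p-value adds no support of its own.

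Ugt1a2 and Ugt1a10 were low throughout and were not tested. Ugt1a2 was 0.954, 0.520 and 0.643 FPKM in liver and between 0.0697 and 0.316 in the gut, with no overlap between liver and any section. Ugt1a10 was 0.630, 0.576 and 0.585 FPKM in duodenum, against 0.355, 0.428 and 0.396 in liver, and 0.148 to 0.375 in the other 9 libraries. The duodenal libraries were above all others for Ugt1a10.

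**Figure D2:**
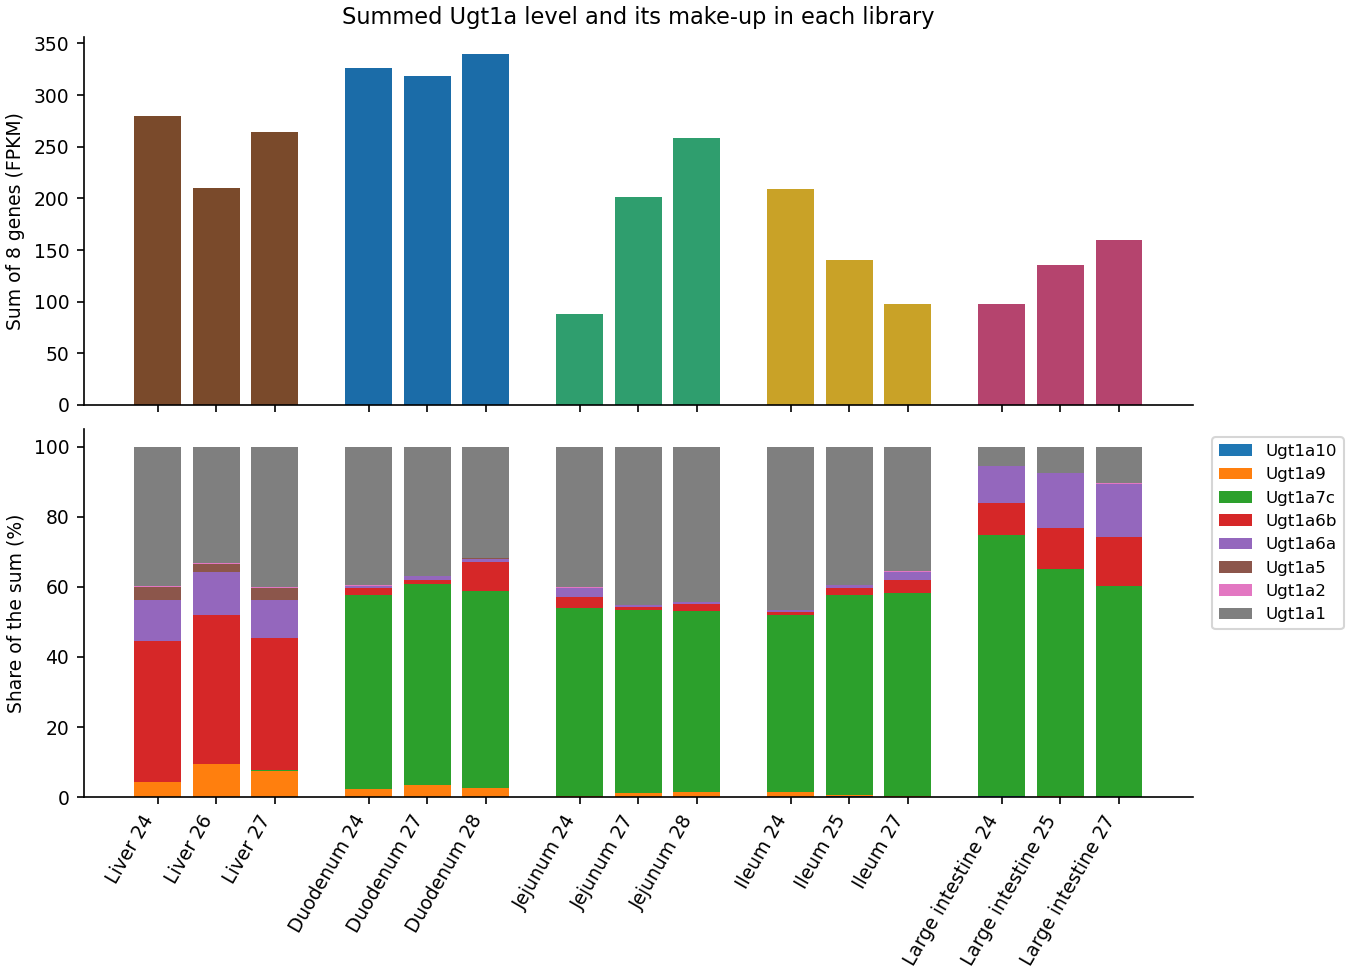
Upper panel: summed FPKM of the 8 genes in each of the 15 libraries (bars, coloured by tissue). Lower panel: the percent of that sum given to each gene; Ugt1a6b and Ugt1a1 make up most of it in liver, with 40.1% and 37.6%, and Ugt1a7c takes 56.3% in duodenum and 66.5% in large intestine.

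The summed level of the locus, which depends less on how shared reads were divided, was 279.8, 210.4 and 264.1 FPKM in liver and 327, 318 and 339 in duodenum. It was 88.2, 202 and 258 FPKM in jejunum 24, 27 and 28, 209, 140.4 and 98.1 in ileum 24, 25 and 27, and 97.4, 136 and 159.5 in large intestine. Duodenum stood above liver without overlap, and every later neighbour in the order liver, jejunum, ileum and large intestine overlapped. The means were 251 ± 36.4 FPKM in liver and 328 ± 10.6, 183 ± 86.7, 149 ± 56.0 and 131 ± 31.4 in the sections from duodenum to large intestine (SD, n = 3 each). Leaving out jejunum 24 and ileum 24 gave jejunal and ileal means of 230 and 119 FPKM. With median-of-ratios scaling liver was at 426 ± 67.1 and duodenum at 320.5, so the order of those tissues rests on the scaling. The shares within a library do not change with scaling.

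The make-up of the sum differed by tissue. Each share and ratio below also rests on how shared reads were divided, which is not known, and the SD does not cover this. In liver Ugt1a6b took 40.1% ± 2.45, Ugt1a1 37.6% ± 3.87, Ugt1a6a 11.6% ± 0.620, Ugt1a9 6.98% ± 2.57, Ugt1a5 3.24% ± 0.744 and Ugt1a7c 0.0627% ± 0.0135 (SD, n = 3). In the small intestine Ugt1a1 and Ugt1a7c together took nearly all of it, with 92.4% ± 3.65 in duodenum, 95.6% ± 1.77 in jejunum and 95.7% ± 2.04 in ileum (SD, n = 3 each). Ugt1a7c alone took 56.3% in duodenum (55.3% to 57.3% over the libraries), 52.5% ± 1.02 in jejunum and 55.2% ± 3.94 in ileum. These shares moved little with the doubted libraries, since without jejunum 24 and ileum 24 Ugt1a7c took 51.9% in jejunum and 57.5% in ileum. In large intestine Ugt1a7c took 66.5% ± 7.33, Ugt1a6a 13.8% ± 2.96, Ugt1a6b 11.6% ± 2.37 and Ugt1a1 7.79% ± 2.47 (SD, n = 3). The ratio of Ugt1a7c to Ugt1a1 in FPKM was 0.00165 in liver and 1.58 ± 0.189, 1.22 ± 0.101, 1.39 ± 0.275 and 9.33 ± 3.90 in the sections from duodenum to large intestine. The 3 libraries of large intestine lay above every library of the small intestine in this ratio.

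**Figure D3:**
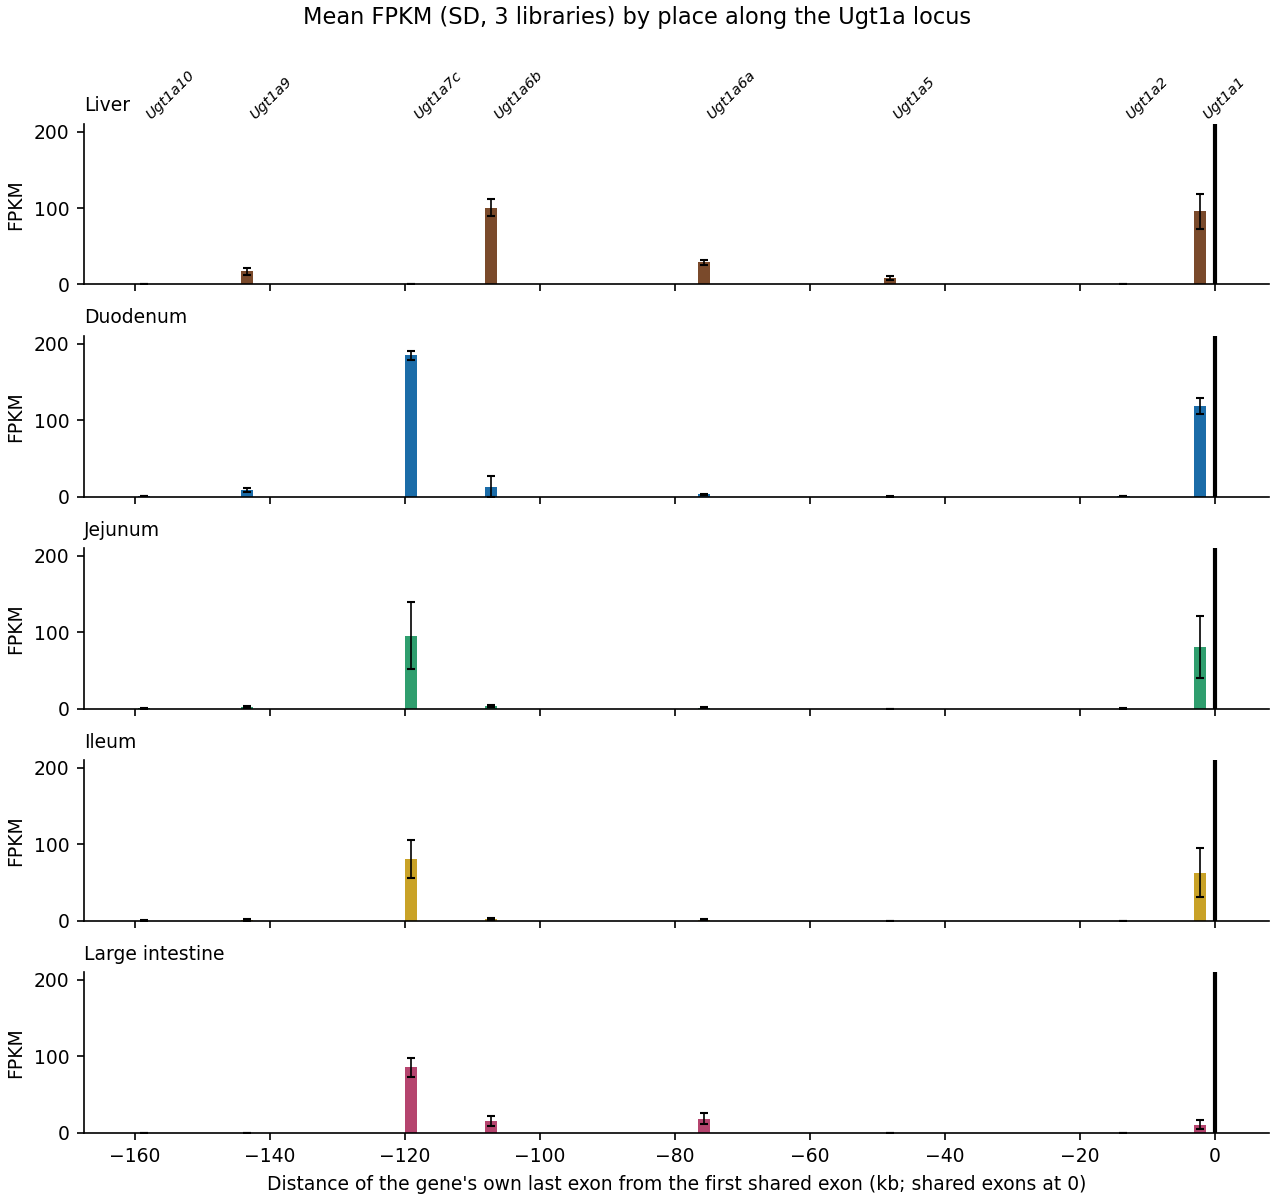
Mean FPKM of each gene (bars, with SD of 3 libraries as lines) placed by the distance of its own last exon from the shared exons in kb, 1 panel per tissue on a common linear axis. In liver the tall bars are Ugt1a1, at 2.17 kb, and Ugt1a6b, at 107.2 kb; in the small intestine they are Ugt1a1 and Ugt1a7c, at 119.1 kb.

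Level did not follow the order of the genes along the chromosome. The genes with the highest mean levels in the 3 sections of small intestine, Ugt1a1 and Ugt1a7c, have own exons 2.17 and 119.1 kb before the shared exons. Between them lie Ugt1a2 at 13.5 kb and Ugt1a5 at 48.1 kb, which are both under 1 FPKM in every intestinal library. Near neighbours also differed: Ugt1a6b, at 107.2 kb, was at 100.3 ± 11.4 FPKM in liver, where Ugt1a7c was at 0.161 ± 0.0544 (SD, n = 3 each).

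**Figure D4:**
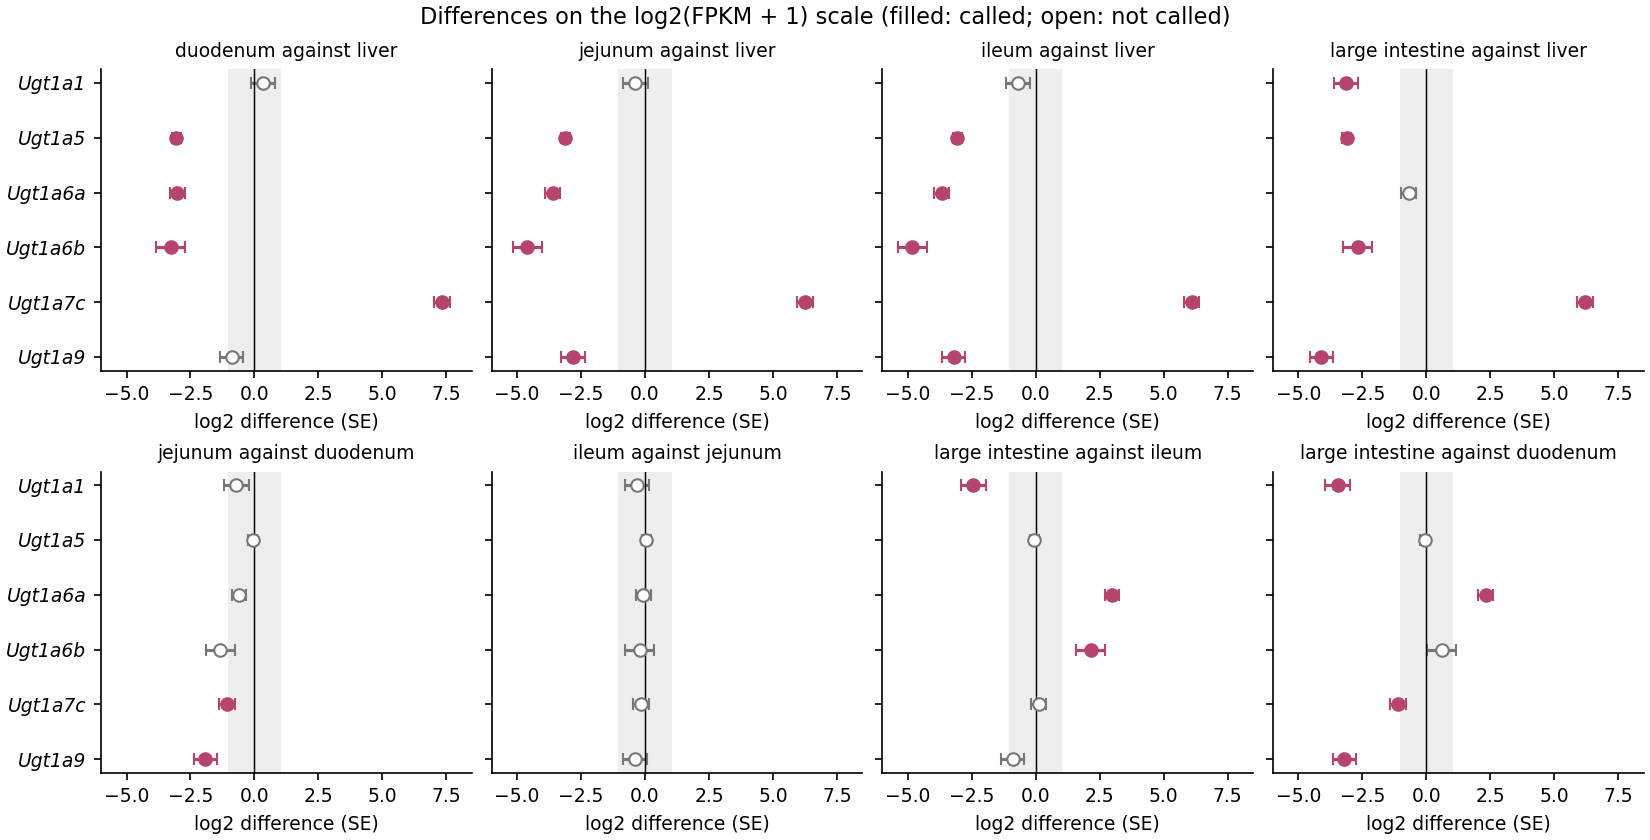
Log2 differences of the 6 tested genes on the log2(FPKM + 1) scale in 8 comparisons, with the later-named tissue as the reference. Points are estimates, lines are SE, filled points were called and the grey band marks differences under 1 in size; Ugt1a7c is the single gene called to the right of 0 against liver, from 6.10 to 7.32.

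Counted over the family, 4 of the 6 tested genes were called in duodenum against liver, 1 higher and 3 lower, where 39.8% of all genes tested were called (30.6% higher and 9.19% lower). In jejunum 5 were called, 1 higher and 4 lower, against 45.8% of all genes (36.9% higher, 8.94% lower). Ileum also had 5, 1 higher and 4 lower, against 43.6% (34.3% higher, 9.24% lower), and large intestine 5, 1 higher and 4 lower, against 50.8% (41.8% higher, 8.99% lower). Ugt1a5, 1 of the lower genes in each section, passed the filter through liver alone, and Ugt1a7c, the higher one, through the gut alone. Median-of-ratios scaling gave 5 called genes in duodenum, 1 of them higher, and 6 in each other section, again with 1 higher. Of all genes 34.5%, 36.5%, 36.1% and 38.6% were then called in the sections from duodenum to large intestine. The share called lower was 16.2%, 18.2%, 17.7% and 19%, and the share called higher 18.3%, 18.3%, 18.4% and 19.6%. The median log2 difference of the 6 genes was, as deposited, -1.96, -2.97, -3.14 and -2.90 in duodenum, jejunum, ileum and large intestine. Without jejunum 24 and ileum 24 the counts were 4, 5, 6 and 5, where 39.9%, 43.3%, 44.3% and 50.9% of all genes were called, and all 4 comparisons share the liver libraries. Jejunum against duodenum called 2 of 6, both lower, where 1.79% of all genes were called (0.807% higher, 0.981% lower), and 1 of 6 without jejunum 24 and ileum 24, where 0.727% were. Ileum against jejunum called 0 of 6 and 0% of all genes by limma, with 0 of 6 and 927 of all genes at an unadjusted p under 0.05. Without the doubted libraries that comparison called 1 of 6, Ugt1a9, and 1.44% of all genes. Large intestine against ileum called 3 of 6, 2 higher and 1 lower, where 13.8% of all genes were called (8.29% higher, 5.5% lower). Large intestine against duodenum called 4 of 6, 1 higher and 3 lower, where 19% were (12.2% higher, 6.84% lower). An F test over the 4 sections called 5 of 6, where 20.9% of all genes were called. The exception in the F test was Ugt1a5 (adjusted p = 0.974), which was near 0 in every section. Without jejunum 24 and ileum 24 the F test called 4 of 6, as Ugt1a6b did not pass (adjusted p = 0.0725). With the replicate number as a block Ugt1a7c did not pass the F test (adjusted p = 0.0643).

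Promoter sequences, from 250 bases before to 50 after the start of the gene, were taken from RefSeq on GRCm38.p6 for 7 of the 8 genes, with no entry for Ugt1a6b. They were searched on both strands for GCGTG, the core bound by the aryl hydrocarbon receptor, and for TTTAT, a core bound by CDX factors of the intestine. Matches are in capitals, in the strand of the gene, and none overlapped another. The 3 promoters shown are those of Ugt1a7c, the gene high in the gut and near 0 in liver, and of Ugt1a9 and Ugt1a5. The last-named pair are the tested genes highest in liver whose promoters held a match. Ugt1a2, also highest in liver but low and not tested, held a match too and is not shown.
Ugt1a9 (chr1:88070529-88070828): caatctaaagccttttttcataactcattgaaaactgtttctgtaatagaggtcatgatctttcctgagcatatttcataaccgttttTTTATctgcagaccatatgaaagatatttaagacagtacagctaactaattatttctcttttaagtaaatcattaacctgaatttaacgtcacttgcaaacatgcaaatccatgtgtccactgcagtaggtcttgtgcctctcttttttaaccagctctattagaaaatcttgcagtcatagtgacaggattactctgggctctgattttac
Ugt1a7c (chr1:88094751-88095050): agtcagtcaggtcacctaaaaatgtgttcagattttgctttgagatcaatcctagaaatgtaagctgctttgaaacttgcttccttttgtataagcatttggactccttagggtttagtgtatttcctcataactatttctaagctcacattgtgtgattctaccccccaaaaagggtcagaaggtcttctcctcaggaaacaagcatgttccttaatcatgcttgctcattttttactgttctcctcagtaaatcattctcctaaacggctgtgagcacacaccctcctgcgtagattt
Ugt1a5 (chr1:88165762-88166061): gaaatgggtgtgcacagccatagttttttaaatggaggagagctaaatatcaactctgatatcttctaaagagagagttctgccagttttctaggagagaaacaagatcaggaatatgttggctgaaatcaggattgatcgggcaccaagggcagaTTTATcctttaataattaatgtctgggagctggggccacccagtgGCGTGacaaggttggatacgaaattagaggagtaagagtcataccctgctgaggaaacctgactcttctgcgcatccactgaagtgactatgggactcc
GCGTG was in 1 of the 7 promoters, that of Ugt1a5, against 32.4% of all 32851 promoters of the same length, and TTTAT in 3 of 7, Ugt1a9, Ugt1a5 and Ugt1a2, against 40.01%. Ugt1a7c, the gene high in all gut sections, held neither motif in this window.

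**Figure D5:**
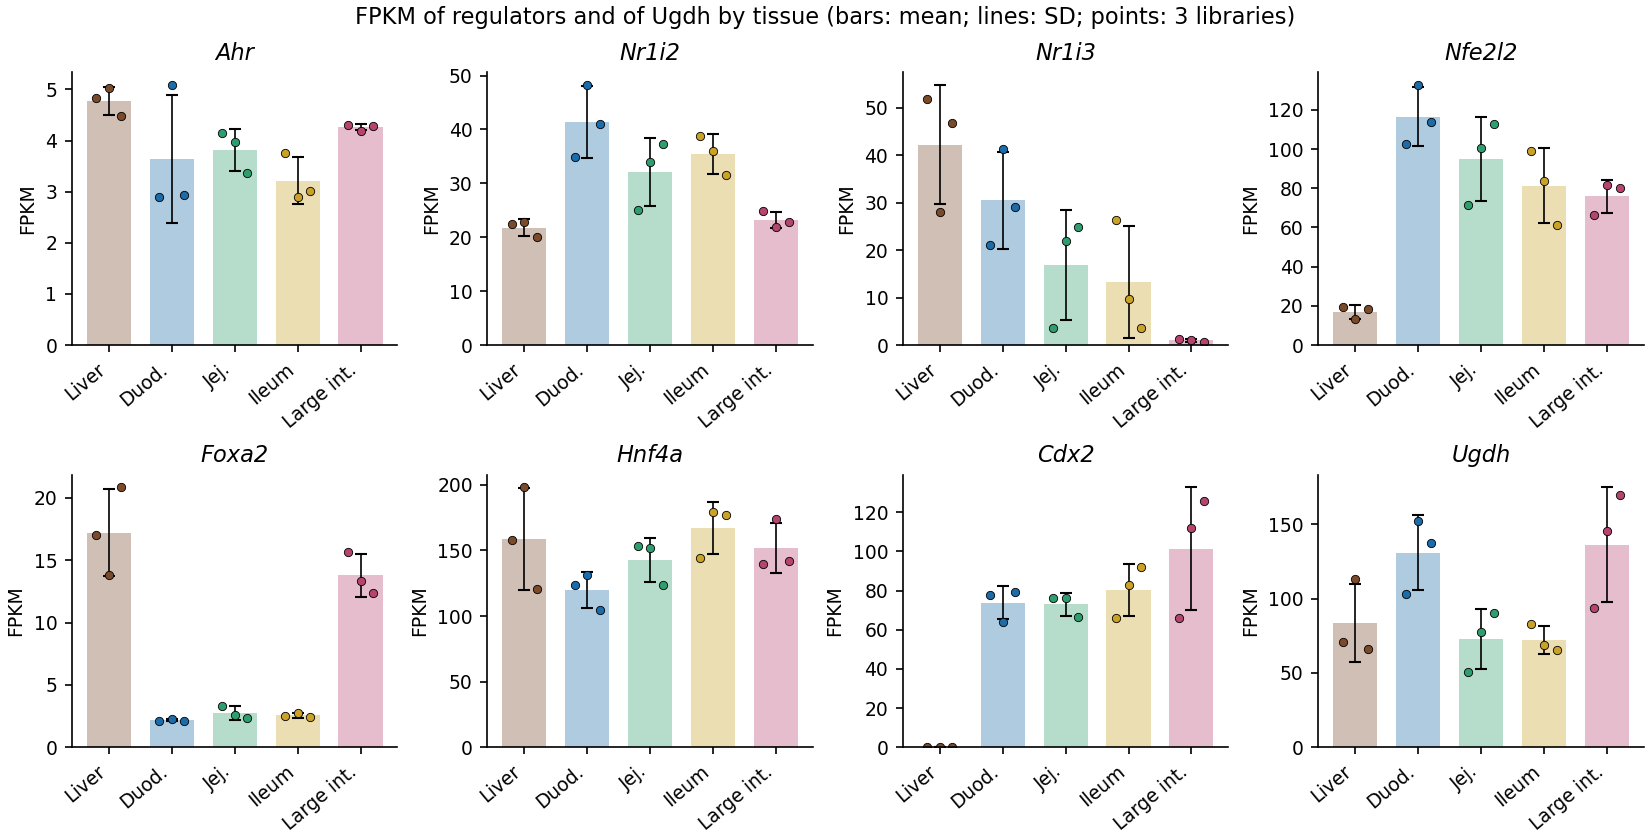
FPKM of 7 regulators and of Ugdh (1 panel each, with its own linear axis) in the 5 tissues, with means as bars, SD as lines and the 3 libraries as points. Cdx2 is near 0 in liver and between 64.1 and 126 in the gut, while Nr1i3 falls from a mean of 42.2 in liver to 1.03 in large intestine.

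Regulators of Ugt1a genes were described from a list of 18, all tested. In duodenum 3 were higher and 5 lower than in liver, in jejunum 4 and 4, in ileum 4 and 5, and in large intestine 6 and 3. Called either way these are 44.4%, 44.4%, 50% and 50% of the list, near the 39.8%, 45.8%, 43.6% and 50.8% of all genes. Of all genes 30.6%, 36.9%, 34.3% and 41.8% were called higher and 9.19%, 8.94%, 9.24% and 8.99% lower. The list thus leaned more to lower calls than all genes did. The glucocorticoid receptor gene Nr3c1 was no longer called in jejunum (0.99, from 1.04) without jejunum 24 and ileum 24. With median-of-ratios scaling the higher and lower genes of the list were 3 and 7, 3 and 8, 3 and 7, and 4 and 7. Of all genes 18.3% to 19.6% were then called higher and 16.2% to 19% lower. Cdx2, a factor that sets intestinal identity, was 0.0169 ± 0.0152 FPKM in liver and 73.7 ± 8.40 in duodenum (SD, n = 3 each), with log2 differences of 6.19, 6.18, 6.31 and 6.60 in the 4 sections. Its relative Cdx1 had the largest difference of the list in large intestine, at 7.22 (limma adjusted p = 3.31e-14). Cdx2 and Cdx1, both among the higher genes counted, were under 1 FPKM in liver and passed the filter through the gut alone. Their higher calls were thus largely fixed by the filter, and the p-value adds no support of its own. Nfe2l2, which encodes the oxidative stress factor NRF2, was higher in all sections, by 2.72, 2.41, 2.19 and 2.12. Foxa2, a forkhead factor of liver, was the lowest of the list in duodenum (-2.50), jejunum (-2.27) and ileum (-2.33), and was -0.29 in large intestine (adjusted p = 0.0615), or -1.35 and called with median-of-ratios scaling.

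Nr1i3 encodes CAR, a xenobiotic receptor known to induce Ugt1a1, and its libraries were 51.9, 28.04 and 46.7 FPKM in liver and 21.1, 41.2 and 29.0 in duodenum. It was 3.57, 21.9 and 24.9 in jejunum 24, 27 and 28, 26.4, 9.80 and 3.68 in ileum 24, 25 and 27, and 1.32, 1.04 and 0.709 in large intestine. As for Ugt1a1, jejunum 24 and ileum 27 were the lowest of their sections and large intestine was below all others. Jejunum 24 is a library whose Fabp6 went against its label, and other genes shared this pattern. Abcc2 was 20.6 FPKM in jejunum 24 and 22.3 in ileum 27, and Ugt2a3 9.81 and 8.68, again the lowest of their sections. The part of the doubted label in this likeness was not tested. Nr1i3 was lower than in liver in ileum (-1.91, limma adjusted p = 0.0241) and large intestine (-4.38, adjusted p = 9.00e-05), with -0.46 (adjusted p = 0.554) in duodenum and -1.59 (adjusted p = 0.0521) in jejunum. Without jejunum 24 and ileum 24 Nr1i3 was -0.78 (adjusted p = 0.0801) in jejunum and -2.56 (adjusted p = 9.92e-05) in ileum, and with median-of-ratios scaling it was called in jejunum (-2.53, adjusted p = 0.00576). Nr1i2, encoding the related receptor PXR, was 21.8 ± 1.53 FPKM in liver, 41.3 ± 6.68 in duodenum and 23.2 ± 1.52 in large intestine (SD, n = 3 each) and was not called in any section. Ahr, the aryl hydrocarbon receptor, was 3.22 to 4.78 FPKM as a mean of each tissue and was not called. Hnf4a, which encodes a nuclear receptor of liver and gut, had means of 120 to 167 FPKM and was not called either. With median-of-ratios scaling Ahr was called lower than liver in all 4 sections, from -1.03 to -1.23, and Hnf4a in duodenum (-1.17), jejunum (-1.11) and large intestine (-1.15).

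The supply of UDP-glucuronic acid was covered by 5 genes. Ugdh, which makes it from UDP-glucose, was 83.3 ± 26.3 FPKM in liver and 131 ± 25.2, 72.8 ± 20.2, 72.4 ± 9.32 and 136 ± 38.5 in the sections from duodenum to large intestine (SD, n = 3 each). It was not called in any section against liver, with log2 differences from -0.19 in jejunum to 0.70 in large intestine. Ugp2, which makes UDP-glucose, was lower in duodenum (-1.41), jejunum (-1.41) and ileum (-1.33) and was -0.49 in large intestine. Slc35d1, a transporter of UDP-sugars into the endoplasmic reticulum, was lower in all 4 sections, by -1.65, -1.76, -1.74 and -1.24. Slc35b1, listed here as a nucleotide sugar carrier of the same membrane, was higher in duodenum (1.53), jejunum (1.24) and ileum (1.34). In all, 1 gene was higher and 2 were lower in each section of small intestine, and 1 and 1 in large intestine, where Uxs1, which turns UDP-glucuronic acid into UDP-xylose, was higher (1.05). Called either way these are 60% of the list in each section of small intestine and 40% in large intestine. Of all genes 39.8%, 45.8%, 43.6% and 50.8% were called in the sections from duodenum to large intestine. With median-of-ratios scaling Slc35b1 (0.75, 0.27 and 0.44 in the small intestine) and Uxs1 (0.11 in large intestine) were not called, and Ugdh was called lower in jejunum (-1.17) and ileum (-1.07).

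Of 6 genes for the formation and hepatic uptake of bilirubin, 0 were higher and 4 lower than in liver in each of the 4 sections by limma. Of all genes tested 8.94% to 9.24% were called lower in these sections, or 16.2% to 19% with median-of-ratios scaling. The uptake carrier Slco1b2 had the largest difference, -7.64 in duodenum and -7.78 in ileum, from 231 ± 83.5 FPKM in liver (SD, n = 3). Slco1b2 and Slco1a1, both among the lower genes, were under 1 FPKM in every intestinal library and passed the filter through liver alone. Their lower calls were thus largely fixed by the filter and add no support to the count. Of 4 exporters of glucuronides, Abcc3, of the basolateral membrane, was lower in duodenum (-1.46), jejunum (-1.78) and ileum (-1.89) and was -0.30 in large intestine (limma adjusted p = 0.172). Abcc2, of the apical membrane, was 71.3 ± 6.07 FPKM in liver and 65.3 ± 16.0 in duodenum, and 0.414 ± 0.119 in large intestine (SD, n = 3 each), where it was lower by -5.68 (adjusted p = 1.10e-08). Abcc2 was thus low in the same section as Ugt1a1. In ileum Abcc2 was also called lower, at -1.02 (adjusted p = 0.0197), and Abcc4 was higher in large intestine at 1.54, or 0.94 and not called with median-of-ratios scaling. The apical exporter gene Abcg2 was called higher in ileum (1.18, from 0.95) without jejunum 24 and ileum 24. As deposited the exporters called were 1 lower in duodenum and in jejunum, 2 lower in ileum, and 1 higher and 1 lower in large intestine. These are 25%, 25%, 50% and 50% of the exporters, against 39.8%, 45.8%, 43.6% and 50.8% of all genes called. Gusb, the lysosomal enzyme that cleaves glucuronides, was 8.60 ± 0.526 FPKM in liver and 15.1 ± 0.374 in large intestine (SD, n = 3 each), with log2 differences from 0.11 to 0.75, and was not called.

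Among 13 UDP-glycosyltransferases outside the locus, 10 passed the filter. As deposited none was called higher than liver, and with equal sums of FPKM in all libraries Ugt2b34 was called higher in duodenum (1.03). There were 8 lower genes each in duodenum and jejunum and 9 each in ileum and large intestine. Of all genes tested 8.94% to 9.24% were called lower in these sections, or 16.2% to 19% with median-of-ratios scaling. Ugt2b1 had the largest difference in each section, -7.89, -8.02, -8.03 and -7.95, from 275 ± 23.2 FPKM in liver (SD, n = 3). Ugt2b1, Ugt3a1 and Ugt3a2 were under 1 FPKM in every intestinal library and passed the filter through liver alone. Their lower calls were thus largely fixed by the filter and add no support to the counts.

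Genes whose levels most resembled those of a Ugt1a gene were ranked by Pearson's r of log2(FPKM + 1) over the 15 libraries, which share tissue and library, so the values are descriptions. The closest to Ugt1a1 were Creb3l3 (r = 0.97), Gpt (0.97) and Pla2g6 (0.97). Creb3l3, a membrane-bound transcription factor of liver and gut, was 123 ± 15.02 FPKM in liver, 153 ± 10.8 in duodenum and 1.62 ± 0.617 in large intestine (SD, n = 3 each). For Ugt1a7c the closest was Sectm1b (0.997), with 0.0788 FPKM in liver and 232, 110.4, 111 and 78.0 in the sections from duodenum to large intestine as means. Ugt1a6a was closest to Stard5 (0.99). Ugt1a9 was closest to Adh4 (0.98), Bbox1 (0.98) and Cyp3a44 (0.98), which like it had lower means from liver to duodenum, jejunum, ileum and large intestine in turn. Within the locus the closest pair among the tested genes was Ugt1a6a and Ugt1a6b (0.87), followed by Ugt1a5 and Ugt1a6b (0.83) and Ugt1a1 and Ugt1a9 (0.77), while Ugt1a7c and Ugt1a5 gave -0.96.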

How the data were processed

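RNA of 5 tissues was sequenced, with 3 libraries per tissue. The authors deposited 1 table of FPKM with 23845 gene records, and all 15 value columns matched a sample, with 0 left over. Per the submitters' processing notes the tools were CASAVA, FastQC, TopHat2 2.0.3, Bowtie 0.12.8, SAMtools 0.1.18 and Cufflinks 2.0.0 on mm10. The gene annotation and the way shared reads were divided are not given in the sources used here, and no reads were aligned again. Depth is unknown.

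Records of 1 symbol were summed, which left 23349 genes, and 27 records with a date in place of a symbol were kept apart. Genes with at least 1 FPKM in at least 3 libraries were tested as log2(FPKM + 1). A single limma 3.58.1 model (R 4.3.3, eBayes with trend and robust settings, statmod 1.5.0) held all 15 libraries and a mean per tissue. P-values were adjusted by Benjamini-Hochberg over all 13757 genes in each of 8 comparisons and an F test among the 4 sections. The procedure was tested on simulated data. Exons and junctions came from GENCODE M21 and promoters from RefSeq. Pandas 2.3.3, Biopython 1.88 and matplotlib 3.10.9 were used in Python 3.11.15.

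The members, gene lists and tests were chosen with earlier results of these data known. The text names all 8 members, in each list the called gene that differed most either way and a set of 12 listed genes. Genes most like a member were the 3 with the highest correlation. Some genes under these rules are not reported here. Slc35d1, Slc35b1 and Uxs1 outside their largest calls were named after their values were seen.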

Additional observations from a re-analysis of the deposited data

How the results depend on the processing

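Of 1350 values of single genes and comparisons recomputed under other settings, 1307 kept direction and call, 16 lost the call, 11 gained it and 16 turned sign. Counts of called Ugt1a genes stayed within 1.5 times the reported one, except as follows. Jejunum against duodenum went from 2 to 1 with quantile normalization, to 0 when only those groups were fitted, to 1 with the replicate block and to 1 without jejunum 24 and ileum 24, and ranged from 0 to 3 when single libraries were left out. Ileum against jejunum went from 0 to 1 without both libraries. The summed level in liver was 426 FPKM with median-of-ratios scaling. Signs turned only in differences that had not been called. For Ugt1a1 in duodenum against liver this was to -0.461 with median-of-ratios scaling and -0.0154 with the replicate block. With single libraries left out, Ugt1a1 in jejunum against liver ran from -0.710 to 0.123 (0.123 also without both libraries). In ileum against jejunum that range was -0.818 to 0.0328 for Ugt1a1, -0.254 to 0.109 for Ugt1a6a, -0.481 to 0.101 for Ugt1a6b and -0.588 to 0.151 for Ugt1a7c. Ugt1a6a there was also 0.0438 with quantile normalization and 0.265 without both libraries, and Ugt1a6b 0.298 with the block. Ugt1a7c in large intestine against ileum ran from -0.117 to 0.327 and was -0.0840 with median-of-ratios scaling. Over all genes, the 246 calls of jejunum against duodenum were 461 with a pseudocount of 0.1, 30 with only those groups and 66 to 473 with 1 library left out. The 0 calls of ileum against jejunum were 16 with records kept apart and 198 without both libraries, and the 1898 of large intestine against ileum were 2919 with equal sums of FPKM. The causes were not tested.

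Over 22 pairs of libraries with 1 title number r of their deviations ran from -0.489 to 0.164 with a median of 0.00136. Over 68 pairs with different numbers it ran from -0.395 to 0.517 with a median of -0.00447. The value of -0.489 came from jejunum 24 and ileum 24, the libraries doubted by Fabp6. In all, 4 libraries correlated best with their own number. With 3 libraries per tissue and doubted labels this cannot show whether numbers mark animals. The labels do not say it either, so numbers were not taken as pairs in the main fit. Under the block Ugt1a7c lost its call in jejunum against duodenum (adjusted p = 0.0506) and large intestine against duodenum (-0.97, adjusted p = 0.0543) and among the 4 sections (adjusted p = 0.0643). The unknown depth limits what can be said of Ugt1a2, Ugt1a5 in the gut and Ugt1a10.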

Other observations

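Genes beside the locus had patterns of their own. Dnajb3, a chaperone gene that lies inside the locus at chr1:88204732-88205748, between the own exons of Ugt1a2 and Ugt1a1, was 0.0902 ± 0.0419 FPKM in liver and 2.05 ± 0.232, 1.69 ± 0.279, 1.73 ± 0.122 and 0.500 ± 0.194 in the sections from duodenum to large intestine (SD, n = 3 each). Dnajb3 was called higher than liver in duodenum (1.48), jejunum (1.30) and ileum (1.32) by limma, with 0.45 in large intestine. It passed the filter through the small intestine alone, so these calls were largely fixed by the filter. Usp40, a deubiquitinase gene before the locus, was 5.90 ± 0.643 FPKM in liver and 5.67 ± 0.149 in large intestine, and was not called in any section. Dgkd, a diacylglycerol kinase gene further before it, rose from 4.07 ± 0.137 FPKM in liver to 26.2 ± 4.37 in duodenum and 35.1 ± 5.72 in ileum. Hjurp, a histone chaperone gene of centromeres beyond the end of the locus, was 2.12 ± 0.633 FPKM in liver and 7.90 ± 0.746 to 10.8 ± 1.60 in the sections. The 5 neighbours were chosen by position. The remaining one, Mroh2a, stayed between 0.135 and 0.292 FPKM as a mean of each tissue and was not tested.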
